A study of Mus musculus with 30 samples.

Results

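The 38 genes described here encode the machinery that carries pyruvate into mitochondria, oxidizes it, turns the tricarboxylic acid (TCA) cycle and exchanges carbon between the cycle and the cytosol. They were taken by their gene symbols, and that rule uses no measured value. The list itself was nevertheless chosen with earlier results of these data known. Each count file held 48737 entries for 46113 genes, 37 of the 38 symbols were found by name, and the other, Pdhx, was found through its gene identifier as 2 entries whose reads were added. The measurements were RNA-seq read counts from 30 libraries, each made from 100 sorted bone marrow cells of C57BL/6 mice, which were 8 to 10 weeks old. In the first experiment haematopoietic stem cells (HSCs) were taken at day 6 (n = 4) or day 10 (n = 6) after the drug 5-fluorouracil (5-FU), which kills dividing cells, or without treatment (n = 4). In a separate experiment, HSCs cultured for 1 day (n = 4) were set against uncultured HSCs (n = 4). In another, CD150+CD48+ haematopoietic progenitor cells (HPCs, n = 4) were set against CD150+CD48- HSCs (n = 4), all taken at day 10 after 5-FU, so that the HSCs in that experiment were not drug-free. All groups were of the same strain and age range, and no allele or transgene is named for any of them. The 5-FU dose, the culture medium and whether libraries of a group came from separate mice are not given in the labels, so p-values measure only the spread between these libraries.

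Pyruvate made by glycolysis enters the mitochondrial matrix through the carrier formed by Mpc1 and Mpc2 and is turned into acetyl-CoA by the pyruvate dehydrogenase complex. Pyruvate dehydrogenase kinases (the Pdk family) phosphorylate and switch off that complex, and the phosphatase Pdp1 removes the phosphate. In mouse bone marrow, quiescent HSCs are known for high glycolysis with pyruvate dehydrogenase held back by Pdk2 and Pdk4, and cells leaving quiescence are known for more mitochondrial respiration. Anaplerotic enzymes refill the cycle, from pyruvate through Pcx or from glutamate through Glud1, while cataplerotic enzymes such as Pck2 withdraw carbon from it.

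The libraries held 5208722 to 12243208 exon reads, and reads in the 38 genes made up 0.270% to 0.485% of them. The lowest count of any of these genes in any library was 3 reads, for Pdk4, and Me1 had as few as 11 reads. Values below are CPM, read counts relative to library size, scaled within each experiment by the trimmed mean of M values (TMM), and tests are edgeR's quasi-likelihood F test with Benjamini-Hochberg adjustment over all genes tested. A gene is said to have risen or fallen where the adjusted p was under 0.05, log2 changes are given with their standard error, and other errors are SD. Defining HSC markers were detected in every group. Their summed level over 10 genes was 2605 to 2721 CPM at day 6 and 2358 to 3335 CPM at day 10, against 4695 to 5504 CPM in untreated HSCs. It was 2393 to 2615 CPM in cultured HSCs, against 4227 to 4606 CPM in uncultured HSCs, and 1768 to 2130 CPM in CD48+ HPCs, against 3026 to 3666 CPM in CD48- HSCs. Cd48 itself was at 45.7 to 56.4 CPM in CD48+ HPCs and 1.27 to 5.10 CPM in CD48- HSCs. In 8 libraries, markers of neutrophils (untreated replicate 3, uncultured replicates 1 and 4), macrophages (day 6 replicate 1, CD48+ replicate 3) or erythroid cells (day 10 replicates 1 and 4, CD48- replicate 3) stood above the rest of the group. Tests were repeated without these 8 libraries, which were chosen after the data were seen, and 30 calls of the 38 genes were lost and 3 gained over the 6 comparisons. The choice did not take in every library with high markers. Erythroid sums were also high in untreated replicate 1 (6366 CPM) and uncultured replicate 3 (4549 CPM, against 65.2 and 67.9 CPM in replicates 2 and 4), and macrophage sums in day 10 replicate 3 (211 CPM), and these 3 libraries were left out only singly. Megakaryocyte markers summed to 181 to 1264 CPM over all libraries and lymphoid markers to at most 20 CPM. Day 10 replicate 6 differed most from its replicates (chi-square per degree of freedom 22.7 to 43.3), and without it 23 of the 38 genes rose and 1 fell at day 10. In these samples of pooled cells, fewer cells of a type and less RNA per cell cannot be told apart.

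Mdh2, Mdh1 and Idh3b were the most abundant of the 38 transcripts in untreated HSCs. Per kilobase of exon, untreated HSCs held most Mdh2, the mitochondrial malate dehydrogenase, at 133 ± 12.6 CPM per kilobase, followed by its cytosolic counterpart Mdh1 at 93.1 ± 13.7 and Idh3b, a subunit of the NAD-dependent isocitrate dehydrogenase, at 75.1 ± 4.55 (SD, n = 4). Levels of Sdha, Idh3g, Cs, Pck2, Sdhd, Idh2, Got2, Sdhb and Ogdh came next, with means between 47.4 and 70.0 CPM per kilobase, and most neighbours in this order lay within their SD of each other. The lowest were Pdk4 at 2.86 ± 0.999, pyruvate carboxylase Pcx at 1.75 ± 0.337 and the cytosolic malic enzyme Me1 at 1.30 ± 0.259 CPM per kilobase. Mdh2 thus stood above all the others beyond its spread in untreated HSCs, and the 3 rarest transcripts stood below all the others.

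Promoter windows of 4 of the genes are shown as examples of the pattern described below. Mdh2 was among the 13 genes that rose in each of 4 comparisons, and Pdk2 fell in each. Pdk4 and Me1 had the largest fall and rise in culture. Each window runs from 250 bases before to 50 bases after the annotated start (RefSeq, build GRCm38.p6), 5′ to 3′ on the strand of the gene. Mdh2 lies at chr5:135778399-135778698, plus strand, Pdk2 at chr11:95041322-95041621, minus strand, Pdk4 at chr6:5496229-5496528, minus strand and Me1 at chr9:86695865-86696164, minus strand. Capitals mark matches to the 9 motifs searched on both strands. They were the GC box, with the letters GGGCGG, and the CCAAT box, named by its letters. Further motifs were the E-box, spelled CACGTG, and the core bound by NRF1, spelled GCATGCGC. An ETS site was searched as CCGGAAG, whereas a FOXO site was searched as GTAAACA. The antioxidant element was TGACNNNGC, the estrogen-related receptor site was taken as AAGGTCA, and the composite site of ATF4 was TGATGNAA.
Mdh2: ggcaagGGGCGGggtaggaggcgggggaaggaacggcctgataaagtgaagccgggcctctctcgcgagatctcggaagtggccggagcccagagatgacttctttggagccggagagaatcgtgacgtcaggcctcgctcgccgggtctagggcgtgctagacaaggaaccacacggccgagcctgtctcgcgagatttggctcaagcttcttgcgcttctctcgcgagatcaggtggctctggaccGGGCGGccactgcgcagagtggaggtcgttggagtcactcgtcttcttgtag
Pdk2: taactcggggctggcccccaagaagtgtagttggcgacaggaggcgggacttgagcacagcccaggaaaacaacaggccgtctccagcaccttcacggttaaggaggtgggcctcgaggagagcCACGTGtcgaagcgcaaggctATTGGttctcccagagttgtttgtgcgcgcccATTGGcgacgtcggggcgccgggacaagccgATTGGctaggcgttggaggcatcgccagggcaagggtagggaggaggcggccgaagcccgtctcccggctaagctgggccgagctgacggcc
Pdk4: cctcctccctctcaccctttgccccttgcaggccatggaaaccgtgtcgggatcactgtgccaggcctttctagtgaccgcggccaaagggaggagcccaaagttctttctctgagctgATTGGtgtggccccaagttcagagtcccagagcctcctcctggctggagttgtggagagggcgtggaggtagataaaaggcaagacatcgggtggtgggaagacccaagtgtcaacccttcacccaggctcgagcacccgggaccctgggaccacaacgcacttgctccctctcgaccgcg
Me1: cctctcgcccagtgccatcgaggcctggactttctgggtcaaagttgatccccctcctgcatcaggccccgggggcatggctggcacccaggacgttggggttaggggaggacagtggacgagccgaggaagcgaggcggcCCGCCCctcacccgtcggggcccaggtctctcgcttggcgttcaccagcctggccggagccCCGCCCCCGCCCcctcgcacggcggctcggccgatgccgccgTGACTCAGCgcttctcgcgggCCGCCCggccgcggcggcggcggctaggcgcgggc

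Mdh2 held GC boxes starting 244 and 2 bases before the start. Pdk2 held an E-box 126 bases before it and CCAAT boxes on the other strand (ATTGG) 105, 73 and 42 bases before it, and Pdk4 held 1 such CCAAT box 131 bases before it. Me1 held an antioxidant element 6 bases before the start and GC boxes on the other strand 109, 48 and 42 bases before and 15 bases after it, those at 48 and 42 being adjacent. Of the 38 genes 34 had a window in the RefSeq table, 45 windows in all; Me2, Idh3a, Sdhc and Pdp1 had none. A GC box was in 64.4% of the 45 windows and 35.7% of all 32851 windows of that length, and a CCAAT box in 62.2% and 37.4%. The ETS site was in 15.6% and 8.86%, the NRF1 core in 8.89% and 2.71%, the E-box in 11.1% and 7.15%, the antioxidant element in 15.6% and 12.4%, the estrogen-related receptor site in 6.67% and 4.72%, and the ATF4 site in 4.44% (Got1 and Pck2) and 3.97%. The FOXO site was in 0 member windows and 3.65% of all windows. These are matches of letters and are not measured sites.

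At day 6 after 5-FU, transcripts of nearly the whole route from pyruvate to oxaloacetate were higher than in untreated HSCs. Of the 38 genes 31 (81.6%) rose and 1 fell, beside 25.7% higher and 25.7% lower of all 12886 genes tested in this comparison, and the median log2 change was 0.67 for the 38 genes and -0.036 for all genes. For 11 genes the rise was at least 2-fold, and together the 38 genes took 0.467% to 0.485% of exon reads at day 6, against 0.280% to 0.312% in untreated HSCs. Both pyruvate carrier genes rose, as did all 5 genes of the pyruvate dehydrogenase complex (log2 changes 0.41 to 0.72) and all 7 genes from succinate to oxaloacetate (0.61 to 1.26). From citrate to 2-oxoglutarate 6 of 7 genes rose, from 2-oxoglutarate to succinate 4 of 5, and among the anaplerotic and cataplerotic genes 5 of 7, whereas among the kinases and phosphatase 2 of 5 rose and 1 fell.

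Cs encodes citrate synthase, which joins acetyl-CoA and oxaloacetate at the entry of the cycle (gene identifier and coordinates as the files give them, build mm10: gene 12974, chromosome 10, 128337832 to 128362479, plus strand). It had 299.7, 334, 356 and 336 CPM in the day-6 libraries, against 145, 173, 152 and 170.0 CPM in untreated HSCs (log2 change 1.05 ± 0.10, adjusted p = 9.26e-07). Every day-6 library lay above every untreated library. Idh3a, the catalytic subunit of the NAD-dependent isocitrate dehydrogenase (gene 67834, chromosome 9, 54586511 to 54604662, plus strand), had 107.8, 125, 119.6 and 130.0 CPM at day 6, against 49.5, 40.9, 37.8 and 43.1 CPM in untreated HSCs (log2 change 1.49 ± 0.12, adjusted p = 3.98e-07). This was the largest rise of the 38 genes at this time. Its partner subunit Idh3b had 128, 139.8, 149 and 142 CPM at day 6, against 126, 128, 113 and 117 CPM in untreated HSCs (log2 change 0.21 ± 0.075, adjusted p = 0.0301), and its groups met near 128 CPM. The Idh3b call was lost without the 8 libraries (adjusted p = 0.0657).

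The NADP-dependent isocitrate dehydrogenases, which make NADPH, differed from each other. Mitochondrial Idh2 had 255, 247, 266 and 228 CPM at day 6, against 135, 128, 150.5 and 160.4 CPM in untreated HSCs (log2 change 0.80 ± 0.086, adjusted p = 3.29e-06), with no overlap. Cytosolic Idh1 had 31.9, 16.2, 17.8 and 15.9 CPM at day 6, against 21.2, 35.7, 30.1 and 32.2 CPM in untreated HSCs, and did not pass the test (log2 change -0.54 ± 0.24, adjusted p = 0.0726). Its replicate 1 at day 6, the library with 529 CPM of macrophage markers, lay within the untreated range while the other 3 lay below it. Without the 8 libraries named above Idh1 was lower at day 6 (log2 change -0.84, adjusted p = 0.0122).

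In the later steps of the cycle, succinate dehydrogenase, which also feeds electrons to the respiratory chain as complex II, rose in all 4 subunits. Its iron-sulphur subunit Sdhb had 115, 131, 137 and 126 CPM at day 6, against 49.95, 61.3, 47.9 and 53.3 CPM in untreated HSCs (log2 change 1.26 ± 0.16, adjusted p = 1.18e-05), and its membrane anchor Sdhd had 159, 159, 146 and 158 CPM at day 6, against 66.5, 64.4, 65.8 and 73.7 CPM in untreated HSCs (log2 change 1.20 ± 0.082, adjusted p = 8.42e-08). Day-6 and untreated libraries were fully apart for both subunits. Fumarase, encoded by Fh1, had 84.4, 95.4, 87.2 and 93.3 CPM at day 6, against 45.4, 41.1, 43.6 and 45.8 CPM in untreated HSCs (log2 change 1.03 ± 0.10, adjusted p = 1.59e-06). Mdh2 (gene 17448, chromosome 5, 135778649 to 135790386, plus strand) had 391, 396, 392 and 398 CPM at day 6, against 155, 192, 163 and 172 CPM in untreated HSCs (log2 change 1.21 ± 0.083, adjusted p = 9.15e-08). The 4 day-6 libraries were close to each other and each stood above every untreated library. Cytosolic Mdh1 had 278, 275, 292 and 269.8 CPM at day 6, against 147, 181, 190.3 and 211 CPM in untreated HSCs, a smaller rise (log2 change 0.61 ± 0.10, adjusted p = 9.13e-05). Suclg1, the alpha subunit of succinyl-CoA synthetase, had 47.8, 54.0, 63.0 and 55.9 CPM at day 6, against 28.9, 28.4, 24.7 and 26.1 CPM in untreated HSCs (log2 change 1.03 ± 0.11, adjusted p = 3.22e-06).

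Among genes that move carbon into and out of the cycle, the aspartate aminotransferases of the cytosol (Got1) and mitochondria (Got2), partners in the malate-aspartate shuttle, rose together. Got1 had 26.6, 30.5, 35.1 and 28.1 CPM at day 6, against 9.52, 20.1, 16.3 and 11.8 CPM in untreated HSCs (log2 change 1.07 ± 0.18, adjusted p = 0.000196), and Got2 had 239.6, 264, 279 and 258 CPM at day 6, against 101, 121, 127 and 130.4 CPM in untreated HSCs (log2 change 1.12 ± 0.10, adjusted p = 8.83e-07). The ranges at day 6 and in untreated HSCs were apart for both, although 48.7% of Got2 reads were unique, so reads of near-identical copies may be counted with it. Mitochondrial malic enzyme Me2 had 103, 107, 114 and 108.2 CPM at day 6, against 57.8, 58.3, 42.2 and 48.8 CPM in untreated HSCs (log2 change 1.06 ± 0.13, adjusted p = 7.88e-06). Pcx, low throughout, had 11.7, 10.6, 14.2 and 12.2 CPM at day 6, against 7.81, 9.37, 7.10 and 5.89 CPM in untreated HSCs (log2 change 0.69 ± 0.20, adjusted p = 0.00814). Pck2, mitochondrial phosphoenolpyruvate carboxykinase, had 182, 185, 195 and 192 CPM at day 6, against 213, 192, 161 and 189.5 CPM in untreated HSCs (log2 change -0.0025 ± 0.10, adjusted p = 0.985). The Pck2 groups overlapped.

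The regulators of pyruvate dehydrogenase moved in opposite directions at day 6. Pdk2 (gene 18604, chromosome 11, 95026258 to 95041371, minus strand) was the gene of the 38 that fell, with 24.5, 18.03, 20.5 and 22.7 CPM at day 6, against 61.7, 61.6, 51.4 and 69.8 CPM in untreated HSCs (log2 change -1.51 ± 0.18, adjusted p = 9.05e-06). Pdk3 had 58.5, 64.7, 71.1 and 60.7 CPM at day 6, against 31.1, 35.2, 40.9 and 38.05 CPM in untreated HSCs (log2 change 0.81 ± 0.12, adjusted p = 4.00e-05), and the phosphatase Pdp1 had 73.2, 80.4, 54.9 and 63.6 CPM at day 6, against 32.8, 38.3, 25.6 and 36.6 CPM in untreated HSCs (log2 change 1.03 ± 0.16, adjusted p = 0.000107). For these 3 genes the ranges at day 6 and in untreated HSCs were apart. Pdk1 had 110.0, 82.8, 103 and 81.8 CPM at day 6, against 82.9, 94.3, 144 and 111 CPM in untreated HSCs (log2 change -0.19 ± 0.16, adjusted p = 0.325), and Pdk4 had 8.56, 6.67, 6.43 and 4.32 CPM at day 6, against 14.4, 8.05, 10.7 and 6.46 CPM in untreated HSCs (log2 change -0.60 ± 0.32, adjusted p = 0.132). For Pdk1 and Pdk4 the groups overlapped and neither change passed the test.

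Other cell features moved with the day-6 group. All 6 cycling markers rose, with a summed level of 1803 to 2085 CPM at day 6, against 412 to 748 CPM in untreated HSCs. All 8 macrophage and monocyte markers rose, with sums of 41.4 to 529 CPM at day 6, against 32.5 to 49.0 CPM in untreated HSCs. All 8 erythroid markers fell, with sums of 295 to 430 CPM at day 6, against 2402 to 6366 CPM in untreated HSCs, and Hba-a2 and Slc4a1 were among those at 0 at day 6. Cd48, the marker of the CD48 sort, was at 1.82 to 6.05 CPM at day 6, against 0 to 0.935 CPM in untreated HSCs. The share of reads in introns was 56.2% to 58.0% at day 6, against 63.7% to 66.7% in untreated HSCs. The part of these features in the changes of the 38 genes was not tested. Without the 8 libraries named above, 2 of the 38 genes fell at day 6, Pdk2 and Idh1.

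**Figure D1:**
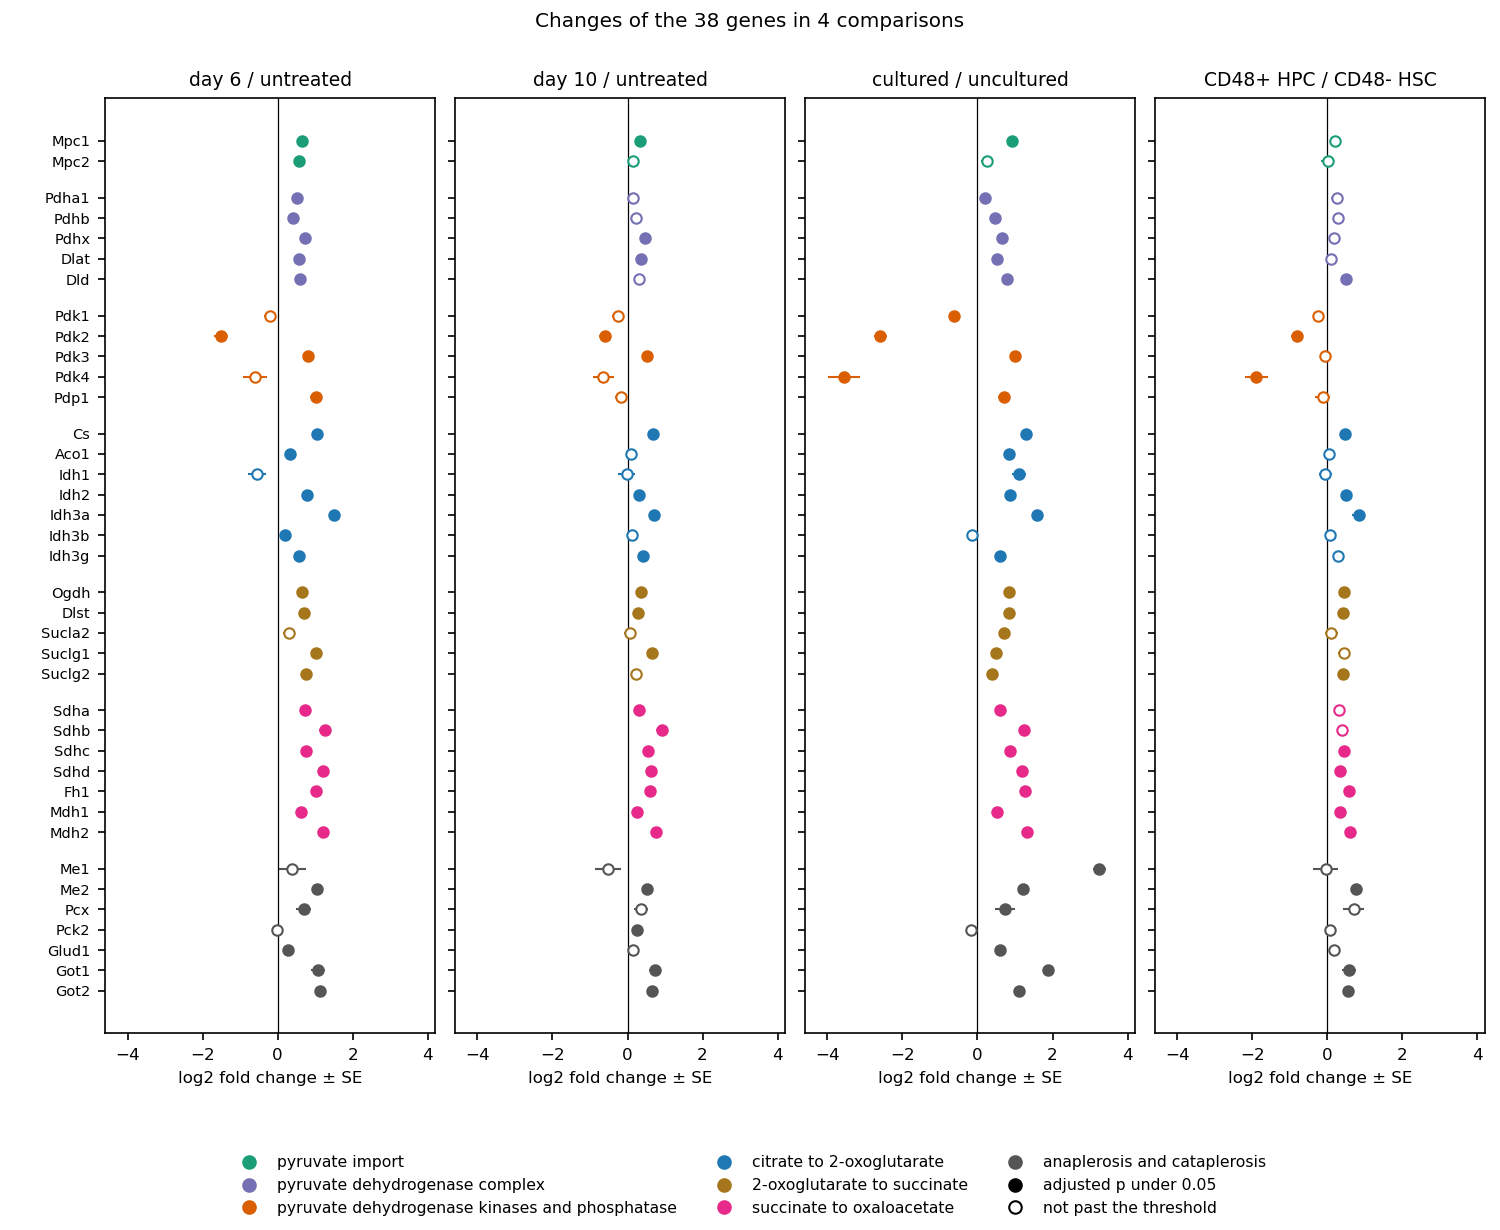
Log2 fold change with its standard error (x axis) of each of the 38 genes (rows, coloured by role) in 4 comparisons, with the treated, cultured or CD48+ group over its control. Filled points passed an adjusted p of 0.05; most cycle genes lie right of 0 in each panel, 31, 22, 32 and 15 of the 38 having risen, while Pdk2 lies left of 0 in all 4.

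At day 10 after 5-FU most of these genes were still above untreated HSCs, and 20 of them were below day 6. Of the 38 genes 22 (57.9%) rose and 1 fell against untreated HSCs, beside 19.9% higher and 18.1% lower of all genes tested, with a median log2 change of 0.31 for the 38 genes and -0.0043 for all genes. The largest rise was 0.92 on the log2 scale, and the 38 genes took 0.355% to 0.386% of exon reads at day 10. All 7 genes from succinate to oxaloacetate rose again (log2 changes 0.26 to 0.92), but only 2 of 5 genes of the pyruvate dehydrogenase complex, Pdhx and Dlat, which form its core, and 1 of 2 carrier genes, Mpc1, did. The day-6 and day-10 comparisons share the 4 untreated libraries. Without the 8 libraries named above, 14 of the 38 rose at day 10, beside 11.9% of all genes, and Pdhx, Dlat and Mpc1 were not among them (adjusted p = 0.0858, 0.189 and 0.137). Of the genes from succinate to oxaloacetate, Sdha and Mdh1 were not (adjusted p = 0.0599 for Sdha).

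Cs was at 211 to 285, median 261, CPM at day 10, against 145 to 173 CPM in untreated HSCs (log2 change 0.68 ± 0.09, adjusted p = 5.06e-05). Mdh2 was at 249 to 317, median 294, CPM at day 10, against 155 to 192 CPM in untreated HSCs (log2 change 0.76 ± 0.077, adjusted p = 6.16e-06), and Sdhd at 92.7 to 119, median 104, CPM at day 10, against 64.4 to 73.7 CPM in untreated HSCs (log2 change 0.62 ± 0.076, adjusted p = 2.63e-05). For these 3 genes every day-10 library still exceeded every untreated library. Got2 was at 165 to 223, median 182, CPM at day 10, against 101 to 130.4 CPM in untreated HSCs (log2 change 0.64 ± 0.10, adjusted p = 0.000130). Idh2 at 159 to 196, median 175, CPM at day 10, against 128 to 160.4 CPM in untreated HSCs (log2 change 0.29 ± 0.079, adjusted p = 0.00900), and Mdh1 at 196 to 249, median 216, CPM at day 10, against 147 to 211 CPM in untreated HSCs (log2 change 0.26 ± 0.089, adjusted p = 0.0279), rose by less, and their groups overlapped. Neither passed without the 8 libraries (adjusted p = 0.0557 for Idh2 and 0.0972 for Mdh1). Pck2 was at 193 to 271, median 217, CPM at day 10, against 161 to 213 CPM in untreated HSCs, overlapping groups with a small rise (log2 change 0.25 ± 0.091, adjusted p = 0.0396) that also did not pass without the 8 libraries (adjusted p = 0.301).

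Idh1, at 21.2 to 36.7, median 29.8, CPM at day 10 and 21.2 to 35.7 CPM in untreated HSCs, and Pcx, at 7.05 to 11.9, median 9.62, CPM at day 10 and 5.89 to 9.37 CPM in untreated HSCs, did not pass the test (log2 changes -0.026 and 0.36, adjusted p = 0.939 and 0.134). Among the kinases, Pdk2 was at 28.6 to 56.7, median 41.4, CPM at day 10, against 51.4 to 69.8 CPM in untreated HSCs (log2 change -0.59 ± 0.16, adjusted p = 0.00924). Pdk3 was at 44.8 to 64.2, median 50.2, CPM at day 10, against 31.1 to 40.9 CPM in untreated HSCs (log2 change 0.51 ± 0.11, adjusted p = 0.00199). Pdk3 groups were apart and Pdk2 groups overlapped in 1 day-10 library. Pdk1 was at 69.7 to 103, median 92.97, CPM at day 10, against 82.9 to 144 CPM in untreated HSCs, and Pdk4 at 3.55 to 10.0, median 5.82, CPM at day 10, against 6.46 to 14.4 CPM in untreated HSCs, without a call for either (log2 changes -0.26 and -0.64, adjusted p = 0.173 and 0.0943).

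Set directly against day 6, day 10 showed 20 of the 38 genes lower (52.6%) and 2 higher, beside 15.9% lower and 14.7% higher of all genes tested, with a median log2 change of -0.34 for the 38 genes and -0.016 for all genes. Pdp1 fell most: it was at 22.6 to 36.3, median 30.6, CPM at day 10, against 73.2, 80.4, 54.9 and 63.6 CPM at day 6 (log2 change -1.20 ± 0.15, adjusted p = 6.93e-05). Its day-10 values overlapped the untreated range of 25.6 to 38.3 CPM. Idh3a was at 58.7 to 87.4, median 69.2, CPM at day 10, against 107.8 to 130.0 CPM at day 6 (log2 change -0.79 ± 0.11, adjusted p = 0.000153), and Sdhd and Mdh2 fell by 0.58 and 0.45 on the log2 scale (adjusted p = 7.87e-05 and 0.000505). Idh2 also fell (log2 change -0.50 ± 0.077, adjusted p = 0.000329), as did Cs (log2 change -0.37 ± 0.087, adjusted p = 0.00537). Mdh1 (log2 change -0.35 ± 0.087, adjusted p = 0.00766) and Pdk3 (log2 change -0.31 ± 0.10, adjusted p = 0.0366) fell as well, but not without the 8 libraries (adjusted p = 0.0573 and 0.102). The 2 genes that rose were Pdk2 (log2 change 0.92 ± 0.17, adjusted p = 0.00125), whose day-10 libraries all lay above the day-6 range of 18.03 to 24.5 CPM, and Pck2 (log2 change 0.25 ± 0.091, adjusted p = 0.0448), whose call was lost without the 8 libraries (adjusted p = 0.120). Pdk1, Pdk4, Idh1 and Pcx had no call between the times (log2 changes -0.064, -0.041, 0.52 and -0.33, adjusted p = 0.770, 0.933, 0.0904 and 0.158). Without the 8 libraries Idh1 rose at day 10 against day 6 (log2 change 0.86, adjusted p = 0.0155).

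At day 10 the summed cycling markers were at 1015 to 1572 CPM, of which 5 of 6 rose against untreated HSCs (412 to 748 CPM), and 3 of 6 fell against day 6. Macrophage and monocyte markers summed to 95.8 to 229 CPM at day 10, with 3 of 8 higher than in untreated HSCs, and erythroid markers to 295 to 1458 CPM at day 10, with 5 of 8 lower. The intron share was 57.6% to 62.1% at day 10, and Cd48 was at 2.06 to 6.096 CPM. Their part in the day-10 values was not tested.

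**Figure D2:**
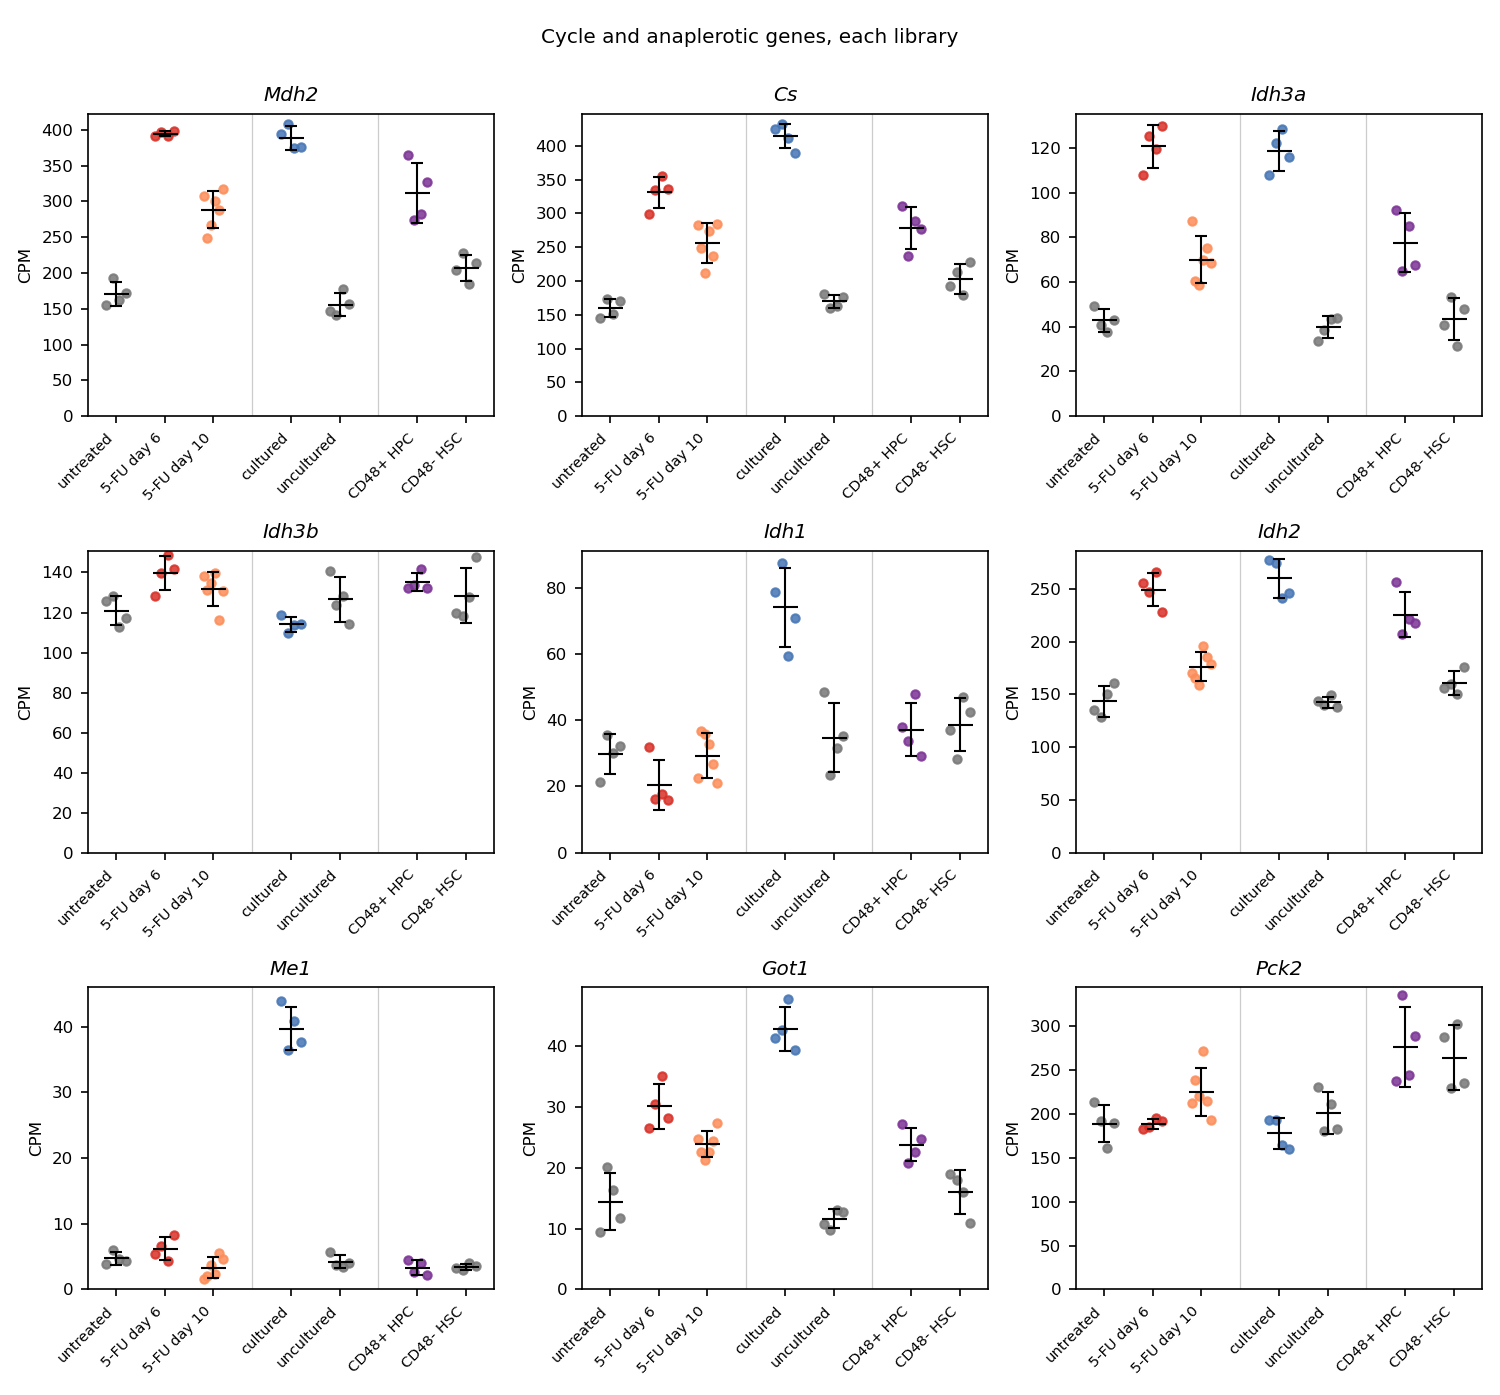
CPM (y axis, from 0) of 9 genes of the cycle and its side branches in each library (points), with group mean and SD (bars), for the 5-FU, culture and CD48 experiments from left to right. Mdh2, Cs, Idh3a, Idh2 and Got1 are high at day 6 and in cultured HSCs, the Idh3b and Pck2 groups overlap or meet within each experiment, and Me1 is at 36.5 to 43.9 CPM in cultured HSCs and at most 8.34 CPM in the other 6 groups.

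After a day of culture most steps of the cycle were higher and 3 of the kinases that restrain pyruvate dehydrogenase were lower. In cultured HSCs 32 of the 38 genes (84.2%) rose and 3 fell against uncultured HSCs, beside 33.8% higher and 33.8% lower of all 12386 genes tested, and the median log2 change was 0.75 for the 38 genes and -0.0097 for all genes. For 12 genes the rise was at least 2-fold, and the 38 genes took 0.434% to 0.4664% of exon reads in cultured HSCs, against 0.270% to 0.320% in uncultured HSCs. All genes of the pyruvate dehydrogenase complex (5 of 5), of the steps from 2-oxoglutarate to succinate (5 of 5) and from succinate to oxaloacetate (7 of 7) rose, and 6 of 7 did among the anaplerotic and cataplerotic genes. The 3 genes that fell were kinases of pyruvate dehydrogenase, Pdk1, Pdk2 and Pdk4. Mpc2, Idh3b and Pck2 had no call (adjusted p = 0.168, 0.104 and 0.121).

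Me1, cytosolic malic enzyme, which makes pyruvate and NADPH from malate (gene 17436, chromosome 9, 86581363 to 86695914, minus strand), rose most. It had 43.9, 36.5, 40.8 and 37.6 CPM in cultured HSCs, against 5.66, 3.71, 3.41 and 4.08 CPM in uncultured HSCs (log2 change 3.24 ± 0.17, adjusted p = 9.45e-09). The lowest cultured library held more Me1 than any library of the other groups. Only 66.3% of Me1 reads were unique, and with unique reads alone its log2 change was 3.37. Got1 had 41.3, 42.7, 47.7 and 39.3 CPM in cultured HSCs, against 10.8, 9.79, 13.0 and 12.7 CPM in uncultured HSCs (log2 change 1.88 ± 0.13, adjusted p = 9.70e-08), and Got2 had 267, 265, 249 and 243 CPM in cultured HSCs, against 128, 111, 124 and 111 CPM in uncultured HSCs (log2 change 1.11 ± 0.072, adjusted p = 4.56e-08). Groups were apart for both aminotransferases. Me2 had 122, 125, 119.8 and 125 CPM in cultured HSCs, against 61.7, 42.7, 60.2 and 49.0 CPM in uncultured HSCs (log2 change 1.20 ± 0.11, adjusted p = 7.59e-07). Pcx had 14.6, 7.06, 11.7 and 16.2 CPM in cultured HSCs, against 9.55, 5.78, 7.56 and 7.23 CPM in uncultured HSCs, with 1 cultured library inside the uncultured range (log2 change 0.72 ± 0.27, adjusted p = 0.0302). Pck2 had 193, 193, 165 and 160.1 CPM in cultured HSCs, against 230.3, 180.2, 211 and 182 CPM in uncultured HSCs, overlapping groups (log2 change -0.18 ± 0.10, adjusted p = 0.121).

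In the cycle itself, Cs had 425, 432, 412 and 390.0 CPM in cultured HSCs, against 180.4, 161, 163 and 176 CPM in uncultured HSCs (log2 change 1.29 ± 0.065, adjusted p = 7.15e-09). Idh3a had 107.96, 122, 128 and 116 CPM in cultured HSCs, against 33.4, 38.4, 43.3 and 43.8 CPM in uncultured HSCs (log2 change 1.57 ± 0.10, adjusted p = 3.67e-08), while Idh3b had 119, 109.9, 114 and 114 CPM in cultured HSCs, against 141, 124, 128 and 114 CPM in uncultured HSCs. Cultured Idh3a libraries all exceeded the uncultured ones, and Idh3b groups overlapped. Idh1 had 78.7, 87.4, 59.4 and 70.8 CPM in cultured HSCs, against 48.6, 23.4, 31.6 and 35.3 CPM in uncultured HSCs (log2 change 1.10 ± 0.19, adjusted p = 0.000181), and Idh2 had 277, 274, 241 and 246 CPM in cultured HSCs, against 143, 140.0, 149 and 138 CPM in uncultured HSCs (log2 change 0.87 ± 0.069, adjusted p = 2.85e-07). Here the cytosolic and the mitochondrial enzyme were both higher in every cultured library. Mdh2 had 394, 409, 375 and 376 CPM in cultured HSCs, against 147, 141, 178 and 157 CPM in uncultured HSCs (log2 change 1.32 ± 0.078, adjusted p = 2.24e-08), and Mdh1 had 221, 223, 227 and 212 CPM in cultured HSCs, against 172, 142, 149 and 147 CPM in uncultured HSCs (log2 change 0.53 ± 0.072, adjusted p = 2.99e-05). All cultured libraries were higher for both malate dehydrogenases. Sdhb had 132, 132, 128 and 128 CPM in cultured HSCs, against 59.4, 49.4, 57.8 and 53.4 CPM in uncultured HSCs (log2 change 1.24 ± 0.077, adjusted p = 3.39e-08). Sdhd had 140.4, 152, 129.6 and 128 CPM in cultured HSCs, against 57.3, 59.9, 64.5 and 57.5 CPM in uncultured HSCs (log2 change 1.20 ± 0.082, adjusted p = 7.03e-08). Fh1 had 90.8, 109, 107.6 and 103 CPM in cultured HSCs, against 44.6, 35.6, 44.8 and 44.5 CPM in uncultured HSCs (log2 change 1.28 ± 0.10, adjusted p = 2.02e-07). None of these 3 genes had overlapping groups.

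The kinases split again. Pdk4 (gene 27273, chromosome 6, 5483351 to 5496278, minus strand) had 0.926, 1.18, 0.474 and 0.975 CPM in cultured HSCs, against 14.5, 9.49, 4.59 and 14.6 CPM in uncultured HSCs (log2 change -3.56 ± 0.43, adjusted p = 1.17e-05), and Pdk2 had 9.14, 8.68, 7.74 and 6.27 CPM in cultured HSCs, against 45.1, 47.7, 40.01 and 59.4 CPM in uncultured HSCs (log2 change -2.59 ± 0.16, adjusted p = 3.77e-08). Pdk1 had 75.1, 85.8, 85.5 and 67.7 CPM in cultured HSCs, against 131, 129, 115 and 109 CPM in uncultured HSCs (log2 change -0.63 ± 0.10, adjusted p = 8.03e-05). All cultured libraries lay below all uncultured ones for these 3 kinases. Pdk3 had 62.6, 59.6, 63.7 and 66.9 CPM in cultured HSCs, against 36.8, 31.4, 26.2 and 31.9 CPM in uncultured HSCs (log2 change 1.00 ± 0.11, adjusted p = 3.62e-06), and Pdp1 had 46.6, 55.9, 63.5 and 56.1 CPM in cultured HSCs, against 32.5, 28.6, 30.2 and 45.4 CPM in uncultured HSCs (log2 change 0.70 ± 0.15, adjusted p = 0.00105). All cultured libraries were higher for both of these genes.

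All 6 cycling markers rose in culture, with sums of 2234 to 2392 CPM in cultured HSCs, against 368 to 798 CPM in uncultured HSCs, and the intron share was 56.2% to 56.5% in cultured HSCs, against 65.4% to 67.6% in uncultured HSCs. Macrophage markers stayed at 28.1 to 35.6 CPM in cultured HSCs and 24.0 to 43.0 CPM in uncultured HSCs, with Cd68 higher, Cd5l and C1qb lower, and Cd5l, C1qb, C1qa and Adgre1 at 0 in cultured HSCs. Neutrophil markers summed to 0.557 to 1.91 CPM in cultured HSCs and 3.71 to 1911 CPM in uncultured HSCs, and erythroid markers to 472 to 646 CPM in cultured HSCs and 65.2 to 4549 CPM in uncultured HSCs. Their part in the culture result was not tested.

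**Figure D3:**
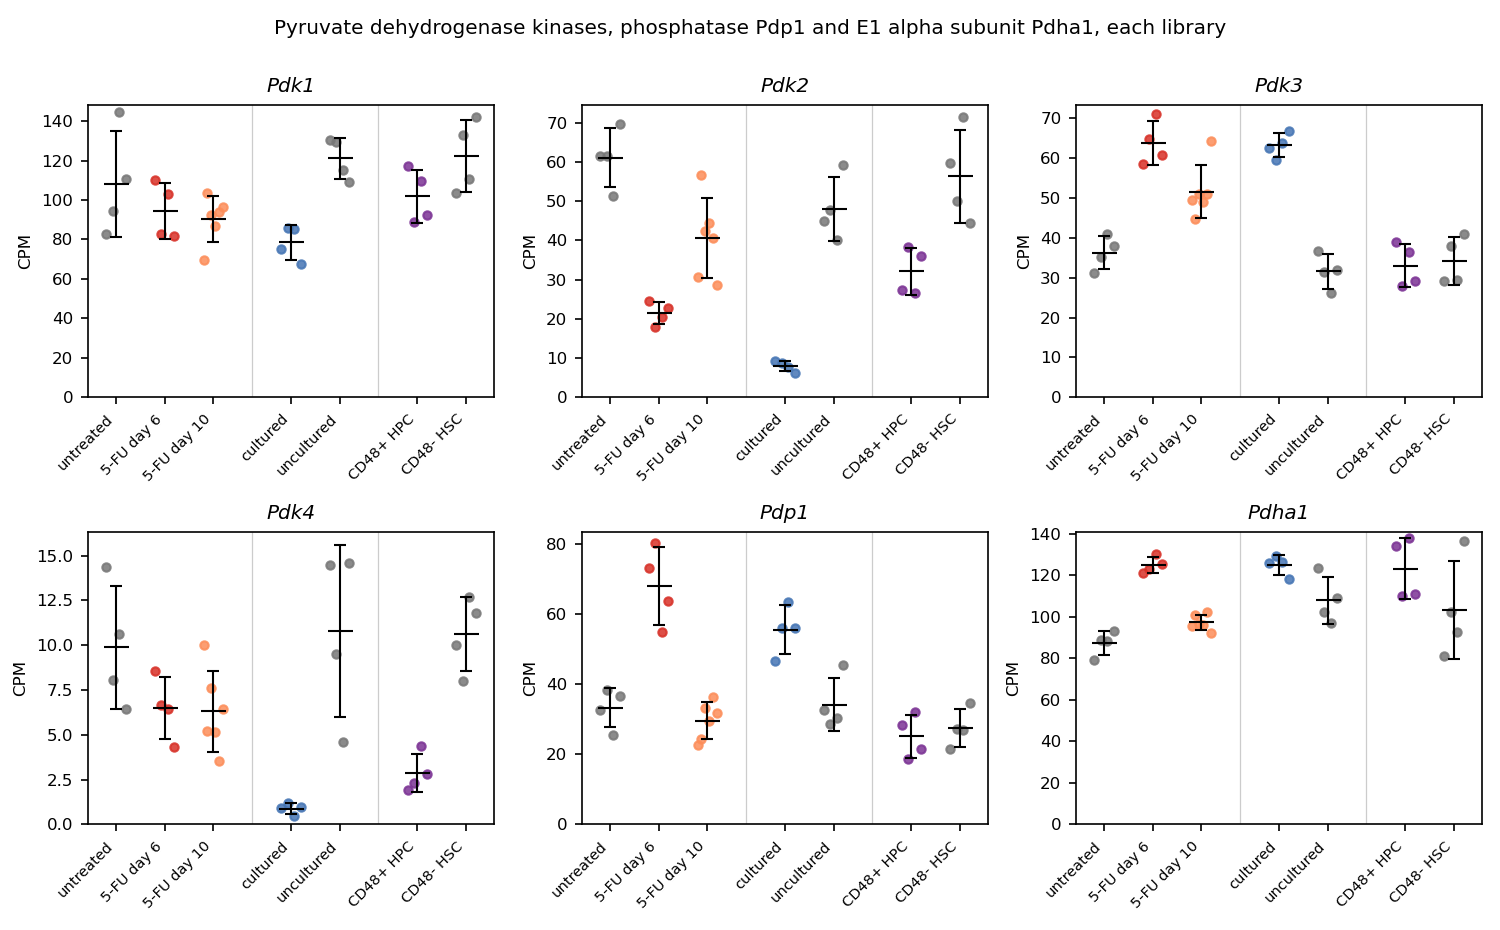
CPM (y axis, from 0) of the 4 pyruvate dehydrogenase kinases, the phosphatase Pdp1 and the catalytic-subunit gene Pdha1 in each library (points), with group mean and SD (bars). Pdk2 is lower and Pdk3 higher at day 6 and in cultured HSCs than in their controls, Pdp1 is high at day 6 (54.9 to 80.4 CPM) and back to 22.6 to 36.3 CPM at day 10, and Pdk4 is near 1 CPM in cultured HSCs.

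The effects of culture and of day 6 after 5-FU were compared gene by gene as a difference of differences in a fit of all 30 libraries, each effect having its own controls. Of the 38 genes 4 were higher and 4 lower in the culture effect, beside 6.36% higher and 8.77% lower of all 13468 genes tested, so the shares of the 38 genes, 10.5% each way, were near those of all genes. The 4 higher genes were Me1 (difference 2.83 ± 0.41 log2 units, adjusted p = 1.67e-05), Idh1 (1.61 ± 0.33, adjusted p = 0.00126), Got1 (0.79 ± 0.25, adjusted p = 0.0294) and Aco1, the cytosolic aconitase that doubles as an iron sensor (0.49 ± 0.14, adjusted p = 0.0180). The 4 lower genes were Pdk4 (-2.99 ± 0.53, adjusted p = 0.000211), Pdk2 (-1.10 ± 0.27, adjusted p = 0.00602), Suclg1 (-0.57 ± 0.18, adjusted p = 0.0310) and Idh3b (-0.38 ± 0.11, adjusted p = 0.0151). Without the 8 libraries named above 2 genes were higher, Me1 and Idh1, and 2 lower, Pdk4 and Suclg2, the beta subunit of the GDP-forming succinyl-CoA synthetase (difference -0.58, adjusted p = 0.0228). The calls of Got1 and Aco1 were lost then (adjusted p = 0.214 and 0.0671), as were those of Pdk2, Suclg1 and Idh3b (adjusted p = 0.0816, 0.0766 and 0.0635). No difference was detectable for the other 30 genes, among them Cs (0.21 ± 0.13), Mdh2 (0.087 ± 0.13), Idh3a (0.058 ± 0.20), Pdk3 (0.16 ± 0.18), Idh2 (0.047 ± 0.11), Mdh1 (-0.10 ± 0.14), Pcx (0.0048 ± 0.36), Pck2 (-0.20 ± 0.16) and Pdk1 (-0.46 ± 0.20).

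**Figure D4:**
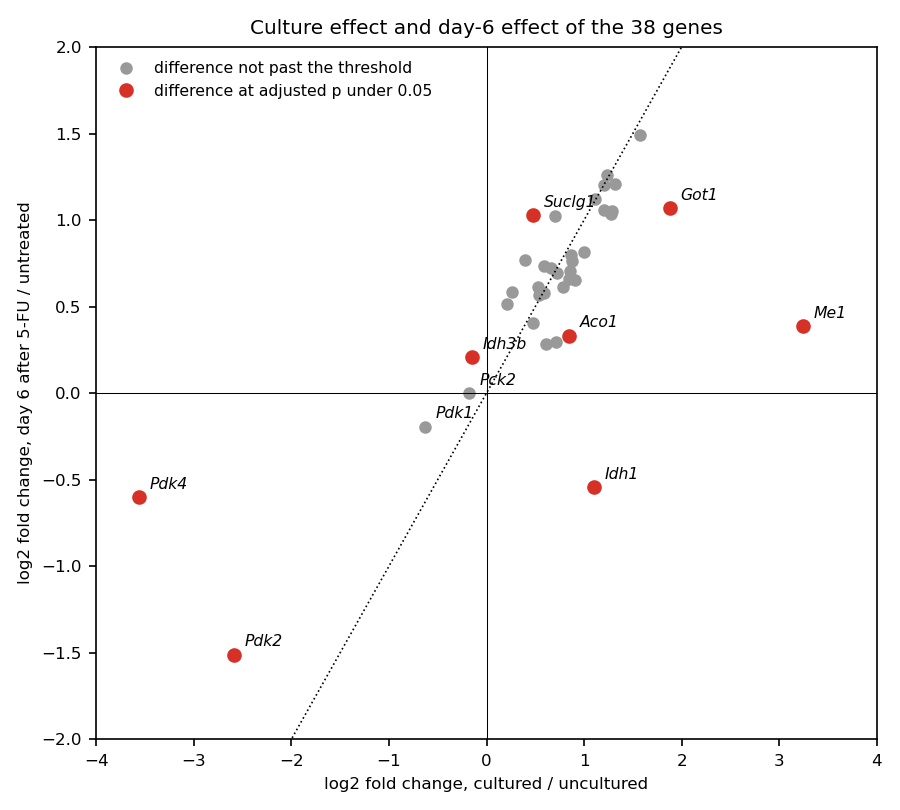
Log2 fold change in culture (x axis, cultured over uncultured HSCs) and at day 6 after 5-FU (y axis, day 6 over untreated HSCs) of the 38 genes; the dotted line marks equal change. Red points differ between the effects at an adjusted p under 0.05, with Me1 (3.24 and 0.39) and Idh1 (1.10 and -0.54) right of the line and Pdk4 (-3.56 and -0.60) and Pdk2 (-2.59 and -1.51) left of it.

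CD48+ HPCs, progenitors set apart from HSCs by CD48 on their surface, held more transcripts of several cycle steps than CD48- HSCs of the same day and less Pdk2 and Pdk4. In CD48+ HPCs 15 of the 38 (39.5%) rose and 2 fell, beside 14.0% higher and 12.5% lower of all 12719 genes tested, and the median log2 change was 0.29 for the 38 genes and -0.011 for all genes. The risen genes were 5 of 7 from succinate to oxaloacetate, 3 of 5 from 2-oxoglutarate to succinate, 3 of 7 from citrate to 2-oxoglutarate, 3 of 7 anaplerotic or cataplerotic genes and Dld, the dihydrolipoamide dehydrogenase that the pyruvate and 2-oxoglutarate complexes share. The carrier genes Mpc1 and Mpc2 had no call (log2 changes 0.19 and 0.0064). The number that rose was 9 without CD48+ replicate 1, CD48+ replicate 4 or CD48- replicate 3, and 7, beside 9.79% of all genes, without CD48+ replicate 3 and CD48- replicate 3 together. Dld, Suclg2, Dlst, Sdhc, Sdhd, Cs, Mdh1 and Got1 were those that lost the call without these 2 libraries (adjusted p = 0.0509 to 0.197). The 38 genes took 0.373% to 0.433% of exon reads in CD48+ HPCs, against 0.308% to 0.359% in CD48- HSCs.

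Idh3a had 92.5, 65.1, 84.8 and 67.8 CPM in CD48+ HPCs, against 40.8, 53.4, 31.6 and 47.9 CPM in CD48- HSCs (log2 change 0.84 ± 0.17, adjusted p = 0.00466), and Me2 had 107, 86.4, 106 and 97.7 CPM in CD48+ HPCs, against 49.6, 55.7, 54.7 and 71.9 CPM in CD48- HSCs (log2 change 0.77 ± 0.12, adjusted p = 0.00138). Mdh2 had 365, 274, 283 and 326 CPM in CD48+ HPCs, against 204, 228, 184 and 214 CPM in CD48- HSCs (log2 change 0.59 ± 0.11, adjusted p = 0.00291). For these 3 genes no CD48+ library fell within the CD48- range. Idh2 had 257, 208, 221 and 217 CPM in CD48+ HPCs, against 156, 160.2, 151 and 176 CPM in CD48- HSCs (log2 change 0.49 ± 0.092, adjusted p = 0.00315), and Cs had 311, 237, 289 and 277 CPM in CD48+ HPCs, against 192, 214, 179 and 228 CPM in CD48- HSCs (log2 change 0.46 ± 0.11, adjusted p = 0.0101). Mdh1 had 267, 203, 259 and 238 CPM in CD48+ HPCs, against 182, 193, 165 and 223 CPM in CD48- HSCs (log2 change 0.34 ± 0.11, adjusted p = 0.0448). Idh2 and Cs groups were apart and Mdh1 groups overlapped.

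The 2 genes that fell were again kinases. Pdk4 had 1.92, 2.32, 4.36 and 2.81 CPM in CD48+ HPCs, against 10.0, 8.02, 12.7 and 11.8 CPM in CD48- HSCs (log2 change -1.90 ± 0.30, adjusted p = 0.00137), and Pdk2 had 27.4, 38.4, 26.5 and 36.1 CPM in CD48+ HPCs, against 59.7, 50.1, 71.4 and 44.3 CPM in CD48- HSCs (log2 change -0.81 ± 0.17, adjusted p = 0.00600). Every CD48+ library lay below every CD48- library for both. Pdk3 had 38.8, 27.8, 36.3 and 29.1 CPM in CD48+ HPCs, against 29.1, 37.8, 29.3 and 40.9 CPM in CD48- HSCs (log2 change -0.054 ± 0.16, adjusted p = 0.834), and Pdk1 had 117, 89.0, 109 and 92.2 CPM in CD48+ HPCs, against 103, 133, 111 and 142 CPM in CD48- HSCs (log2 change -0.26 ± 0.12, adjusted p = 0.141). Groups overlapped for Pdk1 and Pdk3. Idh1 had 37.9, 33.6, 48.02 and 29.1 CPM in CD48+ HPCs, against 36.9, 28.3, 47.0 and 42.4 CPM in CD48- HSCs (log2 change -0.054 ± 0.18, adjusted p = 0.859), and Pck2 had 237, 335, 244 and 288 CPM in CD48+ HPCs, against 287, 229.5, 302 and 235 CPM in CD48- HSCs (log2 change 0.066 ± 0.13, adjusted p = 0.744). Pcx had 11.7, 14.6, 14.6 and 14.4 CPM in CD48+ HPCs, against 4.77, 14.0, 7.24 and 7.69 CPM in CD48- HSCs (log2 change 0.70 ± 0.28, adjusted p = 0.0874). No call was made for Idh1, Pck2 or Pcx, whose groups overlapped.

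All 6 cycling markers rose in CD48+ HPCs, with sums of 1794 to 2070 CPM, against 607 to 1065 CPM in CD48- HSCs. Macrophage and monocyte markers rose in 6 of 8 genes, with sums of 132 to 850 CPM in CD48+ HPCs, against 65.5 to 239 CPM in CD48- HSCs. Neutrophil markers summed to 19.8 to 344 CPM in CD48+ HPCs, against 0.489 to 2.56 CPM in CD48- HSCs, and Elane and Mpo rose. Erythroid markers summed to 285 to 389 CPM in CD48+ HPCs, with Hba-a2 at 0, against 236 to 9404 CPM in CD48- HSCs. Megakaryocyte markers summed to 181 to 224 CPM in CD48+ HPCs, against 696 to 1048 CPM in CD48- HSCs. They went both ways, however: of 3 tested, Vwf fell and Itga2b rose, with a median log2 change of 0.93. The intron share was 57.5% to 61.5% in CD48+ HPCs, against 60.5% to 65.8% in CD48- HSCs. The part of these features in the result was not tested.

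Across the 4 comparisons with a control (day 6, day 10, culture and CD48), 13 of the 38 genes rose each time: Cs, Idh2, Idh3a, Ogdh, Dlst, Sdhc, Sdhd, Fh1, Mdh1, Mdh2, Me2, Got1 and Got2. They include citrate synthase, 2 of the 3 components of the 2-oxoglutarate dehydrogenase complex (Ogdh and Dlst), fumarase and both malate dehydrogenases. Without the 8 libraries named above 6 genes rose each time: Idh3a, Ogdh, Fh1, Mdh2, Me2 and Got2. With and without them, Pdk2 fell in all 4, Pdk4 in 2 and Pdk1 in 1. With all libraries these 3 kinases made up the members that did not rise in any. Day 6 and day 10 are not independent here, since they share untreated libraries. How many of all genes rose or fell in all 4 was not counted, so these numbers have no such share beside them. Singly, 25.7% of all genes tested were higher at day 6, 19.9% at day 10, 33.8% in culture and 14.0% in CD48+ HPCs. With all libraries Idh1, Idh3b, Sucla2, Me1, Pck2 and Mpc2 rose in 1 comparison each.

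The makeup of the kinase pool differed between groups. Per exon length, Pdk3 made up 55.7 ± 4.22% of the reads of the 4 kinases at day 6 and 44.8 ± 5.79% at day 10, against 29.2 ± 1.42% in untreated HSCs. It made up 66.3 ± 3.40% in cultured HSCs, against 27.7 ± 1.69% in uncultured HSCs, and 35.6 ± 3.77% in CD48+ HPCs, against 27.8 ± 4.22% in CD48- HSCs. Pdk2 made up 14.3 ± 1.97% at day 6 and 26.7 ± 5.69% at day 10, against 37.9 ± 5.68% in untreated HSCs. In cultured HSCs its share was 6.38 ± 1.03%, against 32.2 ± 3.82% in uncultured HSCs. The share of Pdk1 varied less, between 25.4% at day 10 and 35.8% in CD48+ HPCs. Per exon length Pdk3 had the largest share in day-6, day-10 and cultured HSCs, while Pdk1, Pdk2 and Pdk3 each made up 27.7% to 37.9% in untreated, uncultured and CD48- HSCs. Which kinase had the largest share depended on the division by length. In reads not divided by length Pdk1 led, with 50.5 ± 3.06% at day 6, 47.7 ± 2.31% at day 10 and 52.0 ± 3.44% in cultured HSCs. Undivided, the share of Pdk3 was 34.4 ± 3.74% at day 6 and 27.5 ± 4.02% at day 10, against 16.9 ± 0.576% in untreated HSCs, and 42.1 ± 3.74% in cultured HSCs, against 14.9 ± 0.937% in uncultured HSCs.

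**Figure D5:**
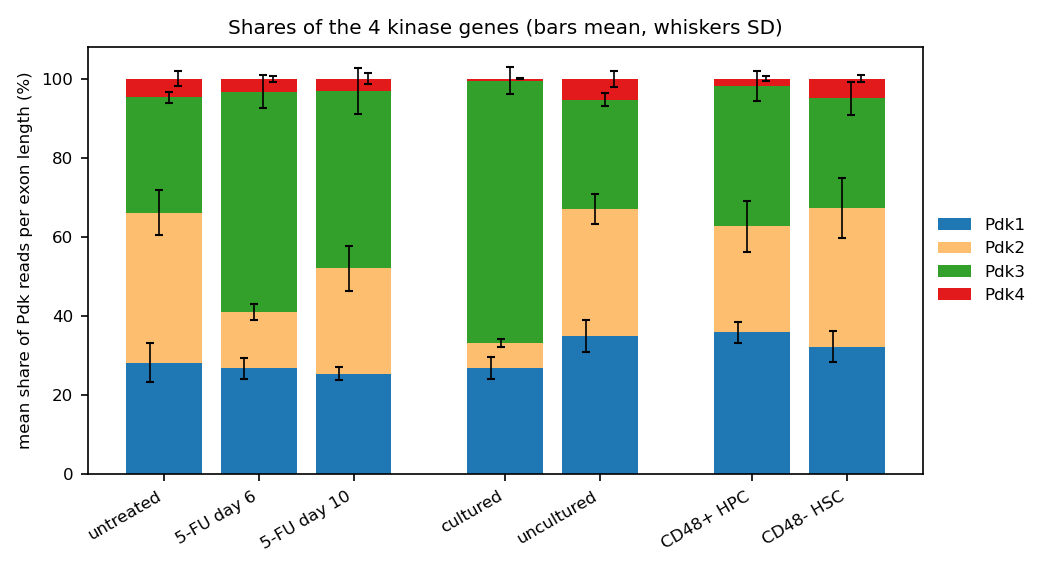
Mean share of each kinase gene in the summed reads per exon length of Pdk1 to Pdk4 (y axis, percent), stacked by group, with SD over libraries as whiskers at the top of each piece. The Pdk3 piece widens to 55.7% at day 6 and 66.3% in cultured HSCs, and the Pdk2 piece narrows to 14.3% and 6.38%.

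The balance between paired enzymes also differed between groups. The log2 ratio of Mdh2 to Mdh1 per exon length was 1.11 ± 0.058 at day 6 and 1.01 ± 0.078 at day 10, against 0.52 ± 0.20 in untreated HSCs, and 1.43 ± 0.064 in cultured HSCs, against 0.64 ± 0.20 in uncultured HSCs. Per exon length the mitochondrial form was thus the more abundant in all these groups and further ahead in treated and cultured HSCs. In reads not divided by length the ratio was near 0 in both controls, -0.089 ± 0.20 in untreated and 0.024 ± 0.20 in uncultured HSCs. Undivided, it was 0.50 ± 0.058 at day 6, 0.40 ± 0.078 at day 10 and 0.82 ± 0.064 in cultured HSCs. For Idh2 to Idh1 the log2 ratio was 3.48 ± 0.45 at day 6, against 2.10 ± 0.34 in untreated HSCs, and 1.63 ± 0.15 in cultured HSCs, against 1.89 ± 0.43 in uncultured HSCs, so that the mitochondrial share was higher at day 6 and not beyond the SD in culture. Got2 to Got1 had a log2 ratio of 2.93 ± 0.093 at day 6, against 2.92 ± 0.41 in untreated HSCs, and 2.40 ± 0.14 in cultured HSCs, against 3.18 ± 0.21 in uncultured HSCs. With unique reads this ratio was 1.89 ± 0.065 at day 6, against 1.88 ± 0.37 in untreated HSCs, and 1.35 ± 0.14 in cultured HSCs, against 2.11 ± 0.21 in uncultured HSCs. Idh3a to Idh3b, a pair chosen after its values were seen, had a log2 ratio of -0.79 ± 0.088 at day 6 and -1.50 ± 0.24 at day 10, against -2.08 ± 0.14 in untreated HSCs, and -0.52 ± 0.15 in cultured HSCs, against -2.25 ± 0.29 in uncultured HSCs. The ratio of Sucla2 to Suclg2, the ADP- and GDP-forming beta subunits of succinyl-CoA synthetase, was -0.72 ± 0.22 in untreated HSCs with all exon reads and 0.16 ± 0.30 with unique reads, so which of them is the more abundant is not settled by these counts. These ratios and shares are descriptions and were not tested.

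Reads in introns were also counted. They can come from unspliced RNA, but their source was not tested. On those reads fewer of the 38 genes passed the test: 7 rose at day 6 (18.4%), 3 at day 10 (7.89%), 17 of 37 tested in culture (45.9%) and 1 in CD48+ HPCs (2.63%). Of all genes tested on intron reads, 14.4% were higher at day 6, 10.5% at day 10, 22.8% in culture and 6.45% in CD48+ HPCs, so the share of these genes was near or below that of all genes except in culture. The median log2 change was 0.21 at day 6, 0.049 at day 10, 0.38 in culture and 0.089 in CD48+ HPCs, with 28, 20, 29 and 23 genes above 0. Me2 rose on intron reads in CD48+ HPCs (log2 change 0.80, adjusted p = 0.00495). At day 6 Idh3a and Cs rose on intron reads (log2 changes 0.91, adjusted p = 0.00264, and 0.60, adjusted p = 0.00469), and in culture Me1 did (log2 change 2.64, adjusted p = 7.26e-05) while Pdk2 fell (-1.86, adjusted p = 0.0184). Idh1 fell on intron reads at day 6 (log2 change -1.52, adjusted p = 0.000641) and at day 10 (-0.71, adjusted p = 0.0406), although its exon reads had no call at either time, and it rose in culture (0.85, adjusted p = 0.00439). Pdk2 had no intron call at day 6 (log2 change -1.06, adjusted p = 0.0659). It also had none at day 10 (-0.33, adjusted p = 0.579) or in CD48+ HPCs (-0.37, adjusted p = 0.651). Pdk4 had no intron call in CD48+ HPCs (log2 change -2.55, adjusted p = 0.094). Pdhb fell on intron reads in culture (log2 change -0.44, adjusted p = 0.0377), although its exon reads rose. At day 6 Pdhb, Pdha1 and Mpc1 rose on exon reads, but their intron changes were -0.19, -0.19 and -0.18, without a call. Intron reads of a gene can include overlapping transcripts, and strand use in the counting is not given in the sources used here.

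Genes of the pathway outside the 38 gave mixed results. Among related isoforms 3 fell at day 6. Dhtkd1, a dehydrogenase of 2-oxoadipate in lysine breakdown, fell at day 6 to 4.61 ± 1.01 CPM, against 10.32 ± 2.99 CPM in untreated HSCs (log2 change -1.16 ± 0.36, adjusted p = 0.0129), as did D2hgdh and Pdp2. Dhtkd1 also fell at day 10, in culture and in CD48+ HPCs. In culture D2hgdh and Pdpr fell with it, while Pdp2, another phosphatase of pyruvate dehydrogenase, rose. Of 10 genes for succinate dehydrogenase assembly, lipoate and thiamine pyrophosphate, 3 rose at day 6 (Sdhaf4, Lias and Nfu1) and 4 in culture (Lias, Nfu1, Sdhaf1 and Sdhaf2). These counts are near the 25.7% of all genes that were higher at day 6 and the 33.8% in culture, and median log2 changes of the 10 genes were 0.26 at day 6 and 0.19 in culture.

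The carriers Slc25a1 and Slc25a10 and the glutamine importer Slc1a5 were higher in culture. Of 7 mitochondrial carriers tested, 3 rose and 1 fell at day 6, 4 rose and 1 fell in culture and 1 rose in CD48+ HPCs, with median log2 changes of 0.19, 0.32 and 0.041. Of all genes, 25.7% were higher at day 6, 33.8% in culture and 14.0% in CD48+ HPCs. Slc25a1, the citrate carrier, averaged 224 ± 15.4 CPM in cultured and 69.5 ± 6.32 CPM in uncultured HSCs (log2 change 1.69 ± 0.083, adjusted p = 5.95e-09), and Slc25a10, the dicarboxylate carrier, 74.8 ± 8.49 CPM in cultured and 24.2 ± 3.57 CPM in uncultured HSCs (log2 change 1.63 ± 0.12, adjusted p = 1.70e-07). Slc25a10 was also the carrier that rose in CD48+ HPCs (log2 change 1.09 ± 0.13, adjusted p = 0.000281). Of 8 glutamine and transaminase genes 2 rose and 1 fell at day 6, 4 rose and 1 fell in culture, and 2 rose and 1 fell in CD48+ HPCs, with medians of -0.071, 0.44 and 0.17. The falling gene was each time Glul, glutamine synthetase, at 444 ± 49.9 CPM at day 6 against 952 ± 154 CPM in untreated HSCs (log2 change -1.10 ± 0.13, adjusted p = 6.51e-06) and 277 ± 39.5 CPM in cultured against 870.5 ± 120.4 CPM in uncultured HSCs (log2 change -1.65 ± 0.11, adjusted p = 6.70e-08). Slc1a5, a glutamine importer, rose in these 3 comparisons, to 388 ± 14.1 CPM in cultured HSCs, against 202 ± 2.28 CPM in uncultured HSCs (log2 change 0.94 ± 0.057, adjusted p = 2.58e-08). Of 6 genes for propionate entry into the cycle, Mmaa, needed for the cobalamin-dependent mutase, fell in each of the 4 comparisons (in culture 18.7 ± 1.98 CPM, against 45.8 ± 6.57 CPM in uncultured HSCs), and Mut, that mutase, rose at day 6 and in culture.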

How the data were processed

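Each of the 30 libraries came from 100 sorted cells, with amplified cDNA and Nextera XT libraries per the labels' protocols. The authors deposited, per sample, counts of exon reads and of intron reads per gene, with unique reads beside the total, on mm10 per the submitters' processing notes; which aligner and counter made them is not given in the sources used here. Total exon read counts of entries with the same gene were added, and no other per-sample columns (0) were found. Genes passed edgeR's filterByExpr within each experiment, all 38 members among them in every comparison. Tests were edgeR 4.0.16 quasi-likelihood F tests (glmQLFit, glmQLFTest) in R 4.3.3 on group means with TMM scaling, each experiment fitted alone and the difference between the culture and day 6 effects in 1 fit of all 30 libraries, with Benjamini-Hochberg adjustment over all genes tested at 0.05. Standard errors are the absolute log2 change over the square root of F. Levels between genes are CPM per 1000 bases of exon. Libraries of a group differed beyond sampling noise, so none was counted as a repeat deposit of another. Chi-square per degree of freedom was 2.44 to 43.3, over genes with at least 20 reads summed over the pair of libraries compared.

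Full values are given for members called with an absolute log2 change of at least 1, the 4 smallest adjusted p, called members against the main direction, and always Cs, Idh1, Idh2, Mdh1, Mdh2, Pcx, Pck2 and Pdk1 to Pdk4. The members, lists and tests were chosen with earlier results of these data known. Markers of HSCs, cycling cells, macrophages and monocytes, erythroid cells, neutrophils, megakaryocytes and lymphoid cells were summed in CPM. Alternatives were DESeq2 1.42.0, size factors by relative log expression, no filter, unique reads, intron reads, groups fitted alone or all together, a replicate block, entries as deposited, each library left out, and, chosen after seeing the data, 8 libraries left out together. The test was checked on simulated counts. Promoter windows came from a RefSeq table.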

Additional observations from a re-analysis of the deposited data

Results flagged for a closer look

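Of 266 combinations of a member and a group, 12 (4.51%) had 1 library apart from the others by Dixon's criterion, and chance gives about 1 in 20. All values here are CPM. Idh1 was at 31.9 in day 6 replicate 1 and 15.9 to 17.9 in the other 3. Dlat was at 36.8 in that same library and 41.5 to 41.9 in the others, and Sdhd was at 146 in day 6 replicate 3 and 158 to 159 in the others. At day 10, Pdk3 was at 64.2 and Mpc1 at 46.3 in replicate 6, with 44.8 to 51.0 and 33.03 to 37.9 in the others, and Idh3b was at 116.1 in replicate 5 and 131 to 139.6 in the others. In cultured HSCs, Mpc1 was at 54.7 in replicate 2 and 49.9 to 50.6 in the others. In uncultured HSCs, Dld was at 23.6 in replicate 4 (17.6 to 18.5 in the others), Sdhc at 23.7 in replicate 3 (29.4 to 30.1 in the others) and Fh1 at 35.6 in replicate 2 (44.5 to 44.8 in the others). In CD48+ HPCs, Idh3b was at 142 in replicate 3 and 132 to 134 in the others, and Pcx at 11.7 in replicate 1 and 14.4 to 14.6 in the others.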

How the results depend on the processing

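Single-gene values were compared between settings only for the genes given with full values in each comparison. Of these values, 1889 kept their side of the threshold, and their direction where called. A call was lost in 97 and gained in 13, and 8 called values changed sign, all 8 with intron reads. They were Fh1 at day 6 (-0.19), Idh2 (-0.16), Mdh1 (-0.072), Mdh2 (-0.0065), Pck2 (-0.054) and Sdhd (-0.075) at day 10, Idh2 in CD48+ HPCs (-0.066) and Pdk3 at day 10 against day 6 (0.21), in log2 units. The cause was not tested. These counts leave out other members, among them Pdhb, which rose in culture on exon reads and fell on intron reads (-0.44, adjusted p = 0.0377). With intron reads 7 members rose at day 6, 3 at day 10, 17 in culture and 1 in CD48+ HPCs, and at day 10 against day 6 1 rose and 4 fell. By edgeR 0 fell in CD48+ HPCs with intron reads, and 3 were lower at an unadjusted p under 0.05.

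Without the 8 doubted libraries, which leaves fewer samples, 14 rose at day 10, 7 rose in CD48+ HPCs, 2 fell at day 6, and 2 were higher and 2 lower in the culture effect than in the day 6 effect. Of the 2 genes that rose at day 10 against day 6, 1 was left with no filter, unique reads or all 30 libraries in 1 fit. Replicate numbers did not pair the libraries (correlations of same-numbered libraries -0.22 to 0.135, with at most 2 of 8 libraries closest to their own number), and with a replicate block 2 members fell at day 6, Pdk2 and Pdk4.

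Leaving out 1 library gave 30 to 31 members that rose and 1 to 2 that fell at day 6 (2 without untreated replicate 1 or day 6 replicate 1). At day 10 19 to 23 rose and 1 to 2 fell (2 without day 10 replicate 1), and against day 6 1 to 2 rose and 17 to 22 fell. In culture 30 to 33 rose and 3 to 4 fell, and in CD48+ HPCs 9 to 17 rose and 2 to 2 fell. In the culture effect against the day 6 effect 3 to 5 were higher and 2 to 4 lower (2 without uncultured replicate 1). Low counts limit Pdk4 and Me1, and reads shared with near-identical copies limit the levels of Pdhx and Mpc1, of whose reads 3.1% and 11.5% were unique.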
